A study of Homo sapiens with 20 samples.

Results

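The sites described here were 1938 of 372133 stretches of accessible chromatin in cells of the human liposarcoma line SW872. They were chosen by the readout itself. Overlapping ATAC-seq peaks of 7 lists, 1 list per vector, were merged into sites, and a site was kept where TAZ4SA, YAP5SA and at least 1 of the fusions TAZ-CAMTA1 and YAP-TFE3 had a peak and where the empty vector (EV), CAMTA1 and TFE3 had none. They are called coactivator-fusion sites below, and they made up 0.521% of all merged sites. ATAC-seq reads out open chromatin by letting a transposase cut accessible DNA. Presence or absence of a peak in each list was what the rule used, so the values in these lists are descriptions and were not tested.

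All cells carried a stably integrated retroviral vector and had been selected for it, so a group is a selected pool of cells. Each introduced protein was expressed from its vector, and its level in these libraries was not measured here. The labels give 3 libraries each for EV, for TAZ4SA and YAP5SA (the full-length coactivators with serines of the LATS kinase sites changed to alanine), for full-length CAMTA1 and for both fusions, and 2 libraries for full-length TFE3. The titles of the YAP-TFE3 libraries name Yap5SA as the YAP part, and 1 EV library (replicate 3) is marked as a redo. Each vector has a single deposited list, without values for its libraries. No replicate error could therefore be computed, the depth behind each list is unknown, and every interval given is a Wilson or Newcombe 95% interval, or one between ranked sites for a median, that covers the counting of sites only. The cell line was not checked against its markers, because gene annotation in the coordinates of these lists was not used here.

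YAP and TAZ are the transcriptional coactivators at the end of the Hippo pathway. They do not bind DNA themselves and are brought to chromatin mainly by TEAD factors, often at enhancers, and phosphorylation by the LATS kinases keeps them out of the nucleus. TAZ-CAMTA1 and YAP-TFE3 are the gene fusions of epithelioid hemangioendothelioma, a vascular sarcoma. Each joins the N-terminal part of a coactivator, with its TEAD-binding region, to the C-terminal part of a DNA-binding transcription factor. A site open with an activated coactivator and with a fusion, but with neither full-length partner, is therefore one where each expressed protein with a peak call carries a YAP or TAZ portion.

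The 7 lists held between 152702 (TAZ4SA) and 236893 (TAZ-CAMTA1) peaks. The YAP-TFE3 list, with 235795 peaks, was nearly as long as that of TAZ-CAMTA1. The EV list held 171102 peaks, YAP5SA 230886, CAMTA1 223651 and TFE3 156421. Most sites shared by both coactivators and a fusion were open in the other cells as well. Of 75762 sites with a TAZ4SA peak, a YAP5SA peak and a fusion peak, 60827 (80.3%) also had peaks of EV, CAMTA1 and TFE3, and 2.56% had none of them, which are the coactivator-fusion sites.

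Among the coactivator-fusion sites, YAP-TFE3 was the more frequent fusion. A YAP-TFE3 peak was present at 1433 of the 1938 sites (73.9%, 71.9 to 75.8%), and a TAZ-CAMTA1 peak at 1084 (55.9%, 53.7 to 58.1%). By pattern, 854 sites (44.1%) had YAP-TFE3 and no TAZ-CAMTA1 peak, 505 (26.1%) had TAZ-CAMTA1 and no YAP-TFE3 peak, and 579 (29.9%, 27.9 to 32%) had both. The sites with YAP-TFE3 alone outnumbered those with TAZ-CAMTA1 alone by 1.69 times (1.51 to 1.89), while the lists themselves differed little in length. On 17 of 22 autosomes the sites with YAP-TFE3 alone were the more numerous, and on 5 (chromosomes 9, 16, 17, 20 and 21) they were the fewer. On chromosome 9, 34 sites had YAP-TFE3 alone and 39 had TAZ-CAMTA1 alone, and on chromosome X the counts were 20 and 1.

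To see where a fusion peak accompanies a coactivator peak, all sites without an EV, CAMTA1 or TFE3 peak were split by coactivator. Of 5613 such sites with peaks of both TAZ4SA and YAP5SA, 34.5% (33.3 to 35.8%) had a fusion peak. The share was 24.0% (23.7 to 24.4%) of 51663 sites with YAP5SA and no TAZ4SA peak, and 13.1% (12.7 to 13.6%) of 21062 sites with TAZ4SA and no YAP5SA peak. Within this split, sites held by both coactivators had a fusion peak more often. The lead was 10.5 percentage points (9.20 to 11.8) over YAP5SA alone and 21.4 points (20.1 to 22.7) over TAZ4SA alone. Fusion peaks were also frequent beside other lists. With EV as the only other list, 2802 sites had TAZ-CAMTA1 alone, 1313 YAP-TFE3 alone, 1882 both fusions and 12398 neither. With CAMTA1 as the only other list, these counts were 7060, 5353, 7996 and 21038. With EV and CAMTA1 together as the only other lists, the counts in the same order were 1323, 520, 2755 and 1076. With EV and TAZ4SA together they were 269, 187, 228 and 983. Every other pair of the non-fusion lists had a fusion peak at a larger share of its sites than the pair of TAZ4SA and YAP5SA. Neither a high share with a fusion peak nor a higher share with an added list was thus particular to the coactivators.

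The share with peaks of both fusions moved in the same order. It was 10.3% (9.55 to 11.1%) of the sites with both coactivators, 7.01% (6.80 to 7.24%) with YAP5SA alone and 2.98% (2.76 to 3.22%) with TAZ4SA alone. The lead of YAP-TFE3 over TAZ-CAMTA1 depended on the coactivators present. At sites with both coactivators, YAP-TFE3 was found at 25.5% (24.4 to 26.7%) and TAZ-CAMTA1 at 19.3% (18.3 to 20.4%). At sites with YAP5SA alone the order was the opposite, with YAP-TFE3 at 14.9% (14.6 to 15.3%) and TAZ-CAMTA1 at 16.1% (15.8 to 16.4%). At sites with TAZ4SA alone the values were 8.57% (8.20 to 8.96%) and 7.53% (7.18 to 7.89%).

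Among sites with exactly 1 fusion, the share that was YAP-TFE3 was 62.8% (60.2 to 65.4%) with both coactivators, 46.6% (45.5 to 47.6%) with YAP5SA alone and 55.1% (53.0 to 57.2%) with TAZ4SA alone. The differences from the sites with both coactivators were 16.3 points (13.5 to 19) and 7.72 points (4.37 to 11). Where sites without an EV peak were taken whatever the CAMTA1 and TFE3 lists held, 16193 sites had both coactivators. YAP-TFE3 then had a peak at 61.5% (60.8 to 62.3%) and TAZ-CAMTA1 at 52.9% (52.1 to 53.7%), so the order of the fusions at sites with both coactivators was the same when the partner lists were not consulted.

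**Figure D1:**
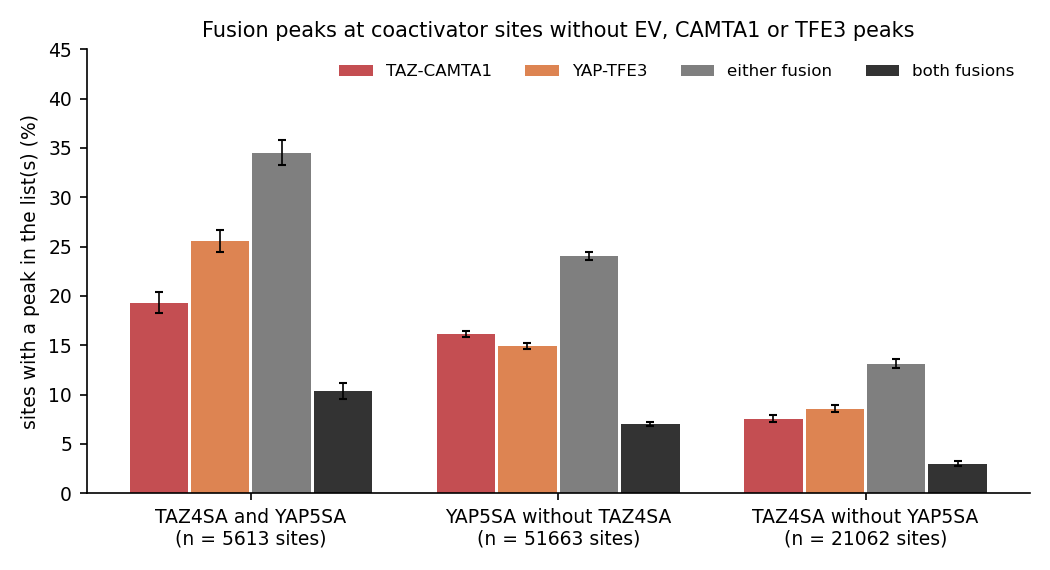
Share of sites without an EV, CAMTA1 or TFE3 peak that have a TAZ-CAMTA1 peak, a YAP-TFE3 peak, either or both (y axis, percent), by the coactivator peaks present (x axis, with the number of sites). Error bars are Wilson 95% intervals. A fusion peak was present at 34.5% of the sites with both coactivators, 24.0% with YAP5SA alone and 13.1% with TAZ4SA alone, and YAP-TFE3 led TAZ-CAMTA1 where TAZ4SA was present.

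The coactivator-fusion sites were narrow and weak next to the chromatin open in every list. The rule favours this, because they must lack an EV, CAMTA1 and TFE3 peak while the other sites have a peak in every list. Their median width was 261 bp (quartiles 170 to 389 bp), against 1226 bp for 60372 sites with peaks in all 7 lists. They were wider than the 3675 sites with TAZ4SA and YAP5SA peaks only (224 bp) and the 11730 sites with both fusions only (149 bp). Sites with a fusion and CAMTA1 or TFE3, and no EV or coactivator peak, had a median of 178 bp. Peak strength is given as the area under the peak caller's statistic. It has no unit, and no list went below 20. Areas of several peaks of a list in 1 site were summed, which concerned between 55 and 84 coactivator-fusion sites per list.

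Across the 4 lists, YAP5SA had the largest areas. In the coactivator-fusion sites the median area was 51.5 for TAZ4SA (quartiles 31.9 to 96.2, 1938 sites), 93.3 for YAP5SA (46.4 to 219, 1938 sites), 61.0 for TAZ-CAMTA1 (35.5 to 108, 1084 sites) and 75.8 for YAP-TFE3 (40.8 to 139, 1433 sites). At the sites with peaks in all 7 lists the medians were 478, 1335, 2106 and 2189 in the same order. The fusion lists, which had the largest areas at the sites open in every list, fell below YAP5SA at the coactivator-fusion sites. Within its own list, the median coactivator-fusion peak stood at percentile 44.6 by area for YAP5SA, 32.5 for TAZ4SA, 32.4 for YAP-TFE3 and 28.9 for TAZ-CAMTA1. The median −log10 p of the summit was 4.52, 4.35, 4.15 and 3.95 in that order.

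At 916 of the 1938 sites (47.3%, 45.1 to 49.5%) the YAP5SA peak had the largest area of the lists present, and at 325 (16.8%) the TAZ4SA peak did. Where each area was first divided by the median area of its list over the sites in all 7 lists, TAZ4SA was the largest at 60.4% (58.2 to 62.6%) of sites and YAP5SA at 30.4%. A fusion peak was the largest at 259 (TAZ-CAMTA1) and 438 (YAP-TFE3) sites as deposited, and at 71 and 107 on the divided scale. The order of the coactivators thus depended on the scale. The divisors were 478 for TAZ4SA, 1335 for YAP5SA, 2106 for TAZ-CAMTA1 and 2189 for YAP-TFE3, while all lists share a lowest area of 20. Division of areas near that floor favours the list with the smallest divisor, TAZ4SA. The divided scale therefore does not show which list was stronger. Because the rule requires both coactivator peaks but only 1 fusion peak, these counts favour the coactivators by construction. At the 579 sites with all 4 peaks, where both kinds have an equal number of lists, the largest area as deposited was that of YAP5SA at 222 sites, YAP-TFE3 at 191, TAZ-CAMTA1 at 117 and TAZ4SA at 49. On the divided scale the order at these sites was TAZ4SA (313), YAP5SA (165), YAP-TFE3 (53) and TAZ-CAMTA1 (48).

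The areas differed by fusion pattern. Sites with YAP-TFE3 alone had larger coactivator peaks than sites with TAZ-CAMTA1 alone. The median TAZ4SA area was 60.9 with YAP-TFE3 alone, 46.1 with TAZ-CAMTA1 alone and 48.1 with both fusions. The median YAP5SA area was 110 with YAP-TFE3 alone, 77.4 with TAZ-CAMTA1 alone and 87.9 with both. The fusion peaks in turn were larger where both were present, with a median TAZ-CAMTA1 area of 71.3 against 52.0 where that fusion was alone, and a median YAP-TFE3 area of 88.3 against 68.0. At 11730 sites with peaks of both fusions and of no other list the medians were 58.3 and 58.9. At the 3675 sites with TAZ4SA and YAP5SA only the coactivator medians were 54.3 and 100, close to those of the coactivator-fusion sites.

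**Figure D2:**
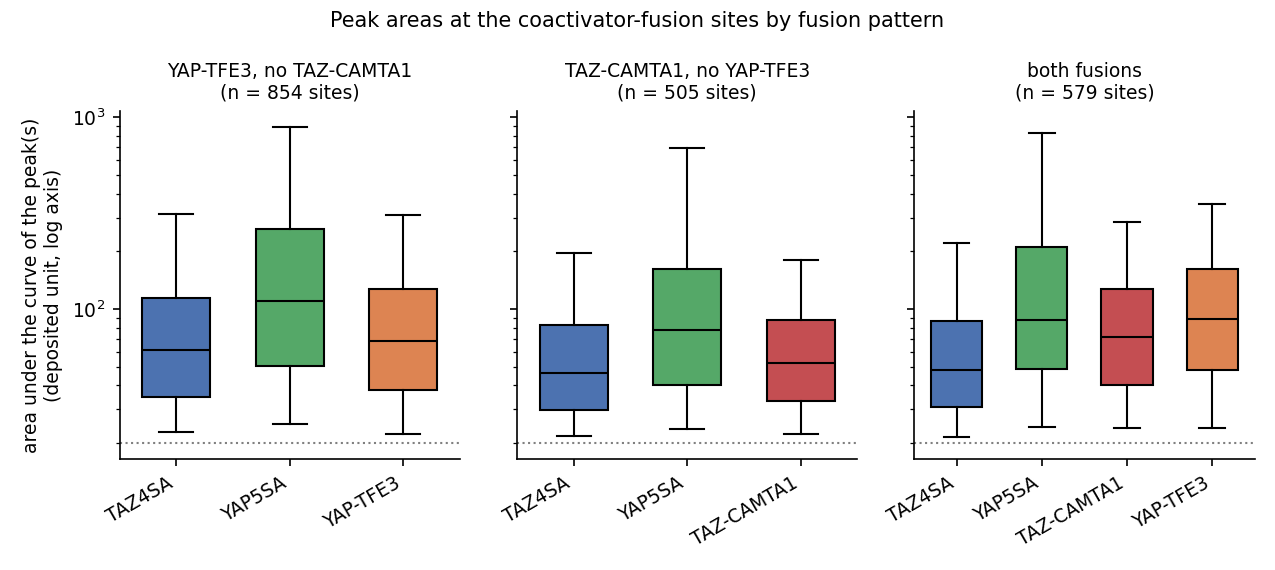
Area under the curve of the peaks (y axis, log scale, deposited unit) in each list at the coactivator-fusion sites, by fusion pattern (panels, with the number of sites). Boxes show the median and quartiles over sites, whiskers the 5th and 95th percentiles, and the dotted line the lowest deposited area of 20. YAP5SA had the highest median in the panels with 1 fusion (110 and 77.4), and with both fusions YAP5SA (87.9) and YAP-TFE3 (88.3) were nearly level.

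Site by site, YAP5SA exceeded TAZ4SA with a median log2 area ratio of 0.79 (0.70 to 0.88, quartiles -0.19 to 1.90), a 1.73-fold difference. Over the sites in all 7 lists this median was 1.16, so by area ratio the lead of YAP5SA was smaller at the coactivator-fusion sites. Areas near the shared lowest value of 20 limit such a ratio. By median percentile within the list the lead was not smaller. YAP5SA stood at 44.6 against 32.5 for TAZ4SA at the coactivator-fusion sites, and at 85.6 against 76.8 at the sites in all 7 lists. The YAP5SA area was at least 2-fold above that of TAZ4SA at 876 of 1938 sites (45.2%), against 55.2% of all 81740 sites with both peaks, and at least 2-fold below at 196 (10.1%), against 4.43%. The autosome medians of this ratio ran from -0.00282 to 1.72 and were above 0 on 21 of 22 autosomes. With areas divided by the median of each list over the sites in all 7 lists, the median was -0.69. That division favours TAZ4SA where areas lie near the lowest value.

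TAZ-CAMTA1 and TAZ4SA differed little in the median but widely by site. The median log2 area ratio was 0.22 (0.10 to 0.39, quartiles -0.71 to 1.37, 1084 sites). At the sites in all 7 lists the TAZ-CAMTA1 area was 3.79-fold that of TAZ4SA (log2 median 1.92). The TAZ-CAMTA1 area was at least 2-fold above that of TAZ4SA at 339 of 1084 sites (31.3%), where the share of all 79422 sites with both peaks was 72%. It was at least 2-fold below at 208 (19.2%), where that share was 5.57%. The direction of this ratio was not stable. With the −log10 p of the summit in place of the area it was -0.13. It was -1.92 with areas divided by the list medians over the sites in all 7 lists, which favours TAZ4SA near the lowest area.

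YAP-TFE3 lay below YAP5SA, with a median log2 area ratio of -0.40 (-0.51 to -0.27, quartiles -1.84 to 0.77, 1433 sites). At the sites in all 7 lists it lay above, at 0.78. The YAP-TFE3 area was at least 2-fold above that of YAP5SA at 288 of 1433 sites (20.1%), against 40.3% of all 118127 sites with both peaks, and at least 2-fold below at 545 (38%), against 11.3%. Of the 22 autosomes, 6 had a median above 0. With peaks under a summit −log10 p of 4 dropped from every list, the median was -0.072 with an interval that included 0 (-0.19 to 0.066), so the direction was not resolved there.

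Between the fusions, TAZ-CAMTA1 was the lower at the 579 sites with both, with a median log2 area ratio of -0.28 (-0.44 to -0.093). It was -0.090 at the sites in all 7 lists. The TAZ-CAMTA1 area was at least 2-fold above that of YAP-TFE3 at 108 of 579 sites (18.7%), against 15.3% of all 148383 sites with both peaks, and at least 2-fold below at 180 (31.1%), against 14.6%.

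Areas in one list said little about areas in another at these sites. The rank correlation of the areas across the 1938 sites was 0.28 (Spearman's rho) for TAZ4SA and YAP5SA. For the 5 pairs with a fusion it lay between -0.054 and 0.098, over the 579 to 1433 sites with both peaks. Across the sites in all 7 lists the 6 pairs lay between 0.77 and 0.95. These are descriptions across sites of the same lists, which share depth and calling within a list. The rule also leaves a narrower range of areas. For TAZ4SA the 5th to 95th percentiles were 22.0 to 266 at the coactivator-fusion sites and 34.8 to 5842 at the sites in all 7 lists. The correlations of these sets are therefore not on an equal footing, and the part of the range in their difference was not tested.

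Sites were ranked by the smallest area among the lists present, and the strongest site of a pattern means the first by this rank. The sites that ranked highest were sites of YAP-TFE3 and no TAZ-CAMTA1. The largest area of 1 list could lie elsewhere. That of YAP5SA (3879) was at a site with TAZ-CAMTA1 alone, and those of TAZ4SA (1120) and YAP-TFE3 (3889) were at sites with YAP-TFE3 alone. The first 15 all had YAP-TFE3 alone. Among the first 100, 77 had YAP-TFE3 alone, 9 had TAZ-CAMTA1 alone and 14 had both. A smallest area of 100 or more was reached by 74 of 854 sites with YAP-TFE3 alone (8.67%), 9 of 505 with TAZ-CAMTA1 alone (1.78%) and 13 of 579 with both (2.25%), the last being a minimum over 4 lists rather than 3. When ranked by the smaller of the coactivator areas, which does not involve the fusions, the first 100 held 61 sites with YAP-TFE3 alone, 14 with TAZ-CAMTA1 alone and 25 with both.

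The sites named here are in hg19 (GRCh37), and whether they lie in a gene is not analysed here. The strongest site with YAP-TFE3 alone, Y1, was chr5:127967660-127968576 (917 bp). Its areas were 1120 for TAZ4SA, 1638 for YAP5SA and 629 for YAP-TFE3, and the 3 summits lay within 15 bp of each other. The nearest EV, CAMTA1 or TFE3 peak was 42061 bp away, so this stretch was open by the peak calls in the coactivator and YAP-TFE3 cells with no call of the excluded lists nearby.

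Site Y2, chr11:134939380-134940227 (848 bp), had areas of 1062 for TAZ4SA, 3269 for YAP5SA and 579 for YAP-TFE3, with summits within 28 bp and the nearest excluded peak at 4190 bp. Site Y3, chr2:222505825-222506875 (1051 bp), had 483 for TAZ4SA, 650 for YAP5SA and 881 for YAP-TFE3, and the nearest excluded peak was 66692 bp away. At Y3 the fusion peak was the largest, whereas at Y1 and Y2 it was the smallest. Site Y4, chr16:48997308-48997545, had 279 for TAZ4SA, 640 for YAP5SA and 288 for YAP-TFE3, but an excluded peak lay 196 bp away. Site Y5, chr18:33513835-33514351, had 379 for TAZ4SA, 266 for YAP5SA and 807 for YAP-TFE3, again with the fusion peak as the largest.

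The strongest site with both fusions, B1, was chr1:163172694-163173322 (629 bp). Its areas were 640 for TAZ4SA, 1757 for YAP5SA, 186 for TAZ-CAMTA1 and 407 for YAP-TFE3. Of the 4 peaks that of TAZ-CAMTA1 was the weakest, and the summits were spread over 408 bp. Site B2, chr15:102305167-102305685 (519 bp), had 317, 666, 181 and 336 in the same order, with summits within 65 bp. Site B3, chr7:39402388-39402784 (397 bp), had 159, 269, 169 and 201, with summits within 42 bp, and its 4 areas were the most even of these 3 sites.

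The other 7 named sites with both fusions had smallest areas from 157 (B4, chr12:56554112-56554571) to 113 (B10, chr3:61438137-61438716). At B5 (chr20:30560152-30561042), B7 (chr13:80059103-80059609) and B9 (chr12:117302252-117303129) the YAP5SA area stood out, with 1458, 1445 and 1700 against TAZ4SA areas of 224, 160 and 162. At B4, TAZ4SA had the largest area, with 307, and B4 and B6 (chr18:29266719-29267062) had an excluded peak within 500 bp, at 309 and 121 bp. At B8 (chr14:97743015-97743217) the YAP-TFE3 area was the largest, with 182. YAP5SA was the largest at 8 of the 10 named sites with both fusions.

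The strongest sites with TAZ-CAMTA1 alone ranked lower by smallest area. Site T1, chr6:44144466-44145129 (664 bp), had areas of 396 for TAZ4SA, 320 for YAP5SA and 149 for TAZ-CAMTA1. At T2, chr5:71723690-71724072, the TAZ-CAMTA1 peak was the largest (237 against 131 for TAZ4SA and 233 for YAP5SA), with an excluded peak 165 bp away. Site T5, chr1:66087420-66088168, had an area of 2228 for YAP5SA against 121 for TAZ4SA and 134 for TAZ-CAMTA1, and was the farthest of the 5 from an excluded peak, at 65117 bp. At T3 (chr8:37749342-37749661) and T4 (chr2:202099638-202099870) TAZ4SA was the largest, with 192 and 188.

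Just inside the rule, 3 sites had a list with an area next to the lowest deposited value. Site L1 (chr5:130594437-130594764) had a YAP-TFE3 area of 20 beside 99.3 for TAZ4SA and 147 for YAP5SA. Sites L2 (chr1:206867950-206868236) and L3 (chr17:20370927-20371240) had TAZ-CAMTA1 areas of 20. In all, the smallest area was under 25 at 485 of the 1938 sites (25%), and its median was 32.8.

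Just outside the rule were sites with a coactivator pair, a fusion and a peak of 1 excluded list. There were 3786 with a CAMTA1 peak alone, with a median CAMTA1 area of 110, 785 with an EV peak alone (median EV area 60.5) and 304 with a TFE3 peak alone (median TFE3 area 43.0). CAMTA1 was thus the list that removed the most sites by itself. The excluded peak had an area under 25 at 169, 74 and 37 of them.

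**Figure D3:**
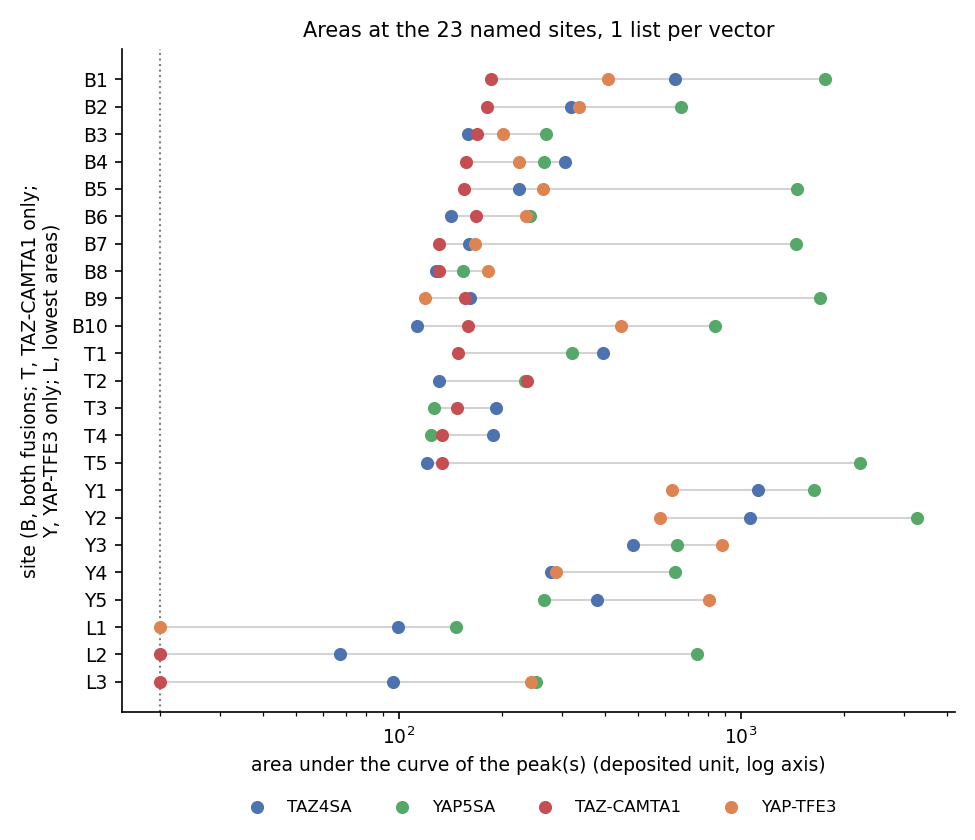
Areas under the curve (x axis, log scale, deposited unit) in each list at the named sites (y axis): B, both fusions; T, TAZ-CAMTA1 alone; Y, YAP-TFE3 alone; L, lowest areas. Each point is the value of 1 list, grey lines join the lowest and highest, and the dotted line marks 20. The smallest areas of Y1 to Y3 (629, 579 and 483) lie above those of every B and T site (at most 186).

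How often a fusion peak was found also varied with the area of the coactivator peak, and here the fusions parted. The 5613 sites with both coactivators and no EV, CAMTA1 or TFE3 peak were ordered by TAZ4SA area and cut into 10 deciles. The CAMTA1 list (223651 peaks) is longer than the TFE3 list (156421). Whether leaving out their sites affects the fusions unequally by area was not tested. TAZ-CAMTA1 had a peak at 21.5% of sites in the lowest decile and at 11.6% in the highest, a difference of -9.96 points (-14.3 to -5.64). YAP-TFE3 was found at 25.3% and 24.4%, a difference of -0.89 points (-5.93 to 4.16). The fall of TAZ-CAMTA1 lay mainly in the highest 2 deciles, with 14.6% in the ninth.

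By YAP5SA area neither fusion changed in 1 direction. TAZ-CAMTA1 went from 17.6% in the lowest decile to 23.9% in the sixth and 13.5% in the highest. YAP-TFE3 went from 21.0% to 30.7% in the sixth and 21.7% in the highest. The highest decile minus the lowest was -4.09 points (-8.33 to 0.15) for TAZ-CAMTA1 and 0.71 points (-4.08 to 5.50) for YAP-TFE3. Both fusions had their highest share in the sixth decile, with YAP5SA areas from about 97.3 to 143, but nearby deciles were close. TAZ-CAMTA1 was already at 23.5% in the third decile, and YAP-TFE3 was at 29.5% in the fifth and 29.4% in the seventh. YAP-TFE3 was above TAZ-CAMTA1 in 9 of the 10 deciles.

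**Figure D4:**
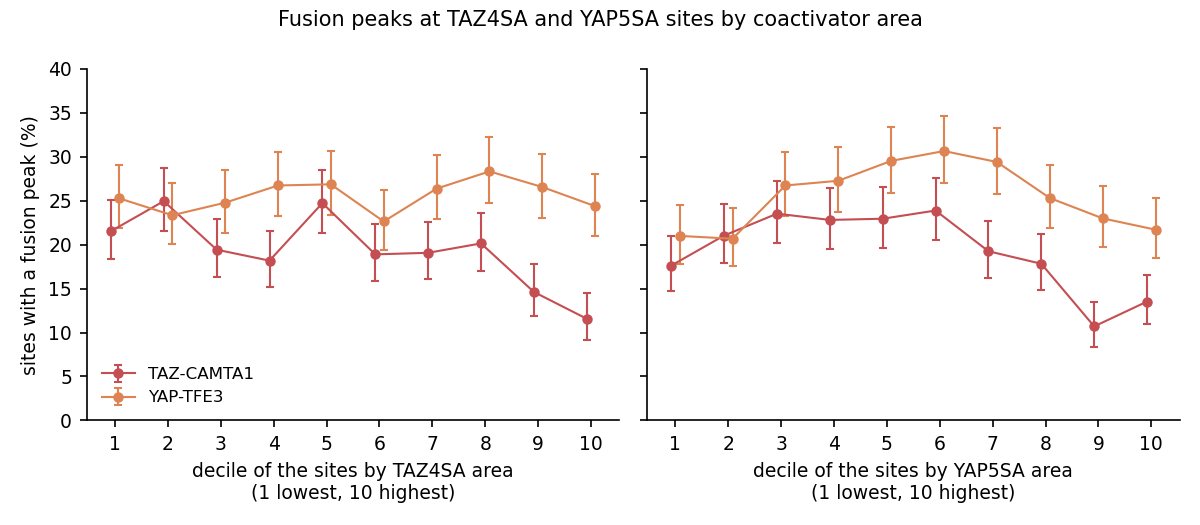
Share of the 5613 sites with TAZ4SA and YAP5SA peaks and no EV, CAMTA1 or TFE3 peak that have a TAZ-CAMTA1 or a YAP-TFE3 peak (y axis, percent), by decile of TAZ4SA area (left) and YAP5SA area (right). Bars are Wilson 95% intervals. With TAZ4SA area the TAZ-CAMTA1 share fell from 21.5% to 11.6%, while that of YAP-TFE3 was 25.3% in the lowest and 24.4% in the highest decile.

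The position of the summits within a site was not used by the rule. At the coactivator-fusion sites the TAZ4SA and YAP5SA summits were a median of 33 bp apart (quartiles 13 to 85.8 bp), and 60.2% (58.0 to 62.4%) lay within 50 bp. At the sites with these coactivators only the share was 62.7% (61.2 to 64.3%), a difference of -2.53 points (-5.22 to 0.14). YAP5SA and YAP-TFE3 summits lay within 50 bp at 65.2% (62.7 to 67.7%) of 1433 sites, and TAZ4SA and TAZ-CAMTA1 summits at 62.2% (59.3 to 65.0%) of 1084. The summits of a fusion thus fell about as near to those of its coactivator as the coactivator summits did to each other.

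The summits of both fusions lay within 50 bp at 69.3% (65.4 to 72.9%) of the 579 sites with both, with a median distance of 22 bp. This was less often than at the 11730 sites with both fusions only (77.0%) (difference -7.70 points, -11.6 to -4.00), and than at the sites in all 7 lists (74.1%, difference -4.84 points, -8.74 to -1.21). The width of a site limits the distance of its summits, and the median widths were 291, 149 and 1226 bp in this order. The part of width in these differences was not tested. All 4 summits lay within 50 bp at 207 of the 579 sites (35.8%), and their median spread was 73 bp.

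Many coactivator-fusion sites lay next to chromatin that was open in other cells. The median distance to the nearest EV, CAMTA1 or TFE3 peak was 923 bp, and 763 sites (39.4%, 37.2 to 41.6%) had one within 500 bp. The share was 27.9% (26.5 to 29.4%) for the sites with TAZ4SA and YAP5SA only and 47.1% (46.2 to 48.0%) for those with both fusions only. CAMTA1 peaks were nearest, with a median of 1607 bp, then EV with 2618 bp and TFE3 with 3399 bp. Distance to a site in all 7 lists gave the same order of the groups. A site in all 7 lists lay within 10 kb of 55.7% (53.5 to 57.9%) of the coactivator-fusion sites, which was 8.19 points (5.44 to 10.9) above the sites with TAZ4SA and YAP5SA only and lower than those with both fusions only (difference -8.48 points, -10.9 to -6.11).

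By chromosome, coactivator-fusion sites were most frequent on chromosome 13, with 118 sites or 7.99 per 1000 merged sites (6.67 to 9.56), and on chromosome 5, with 275 sites or 6.89 per 1000 (6.13 to 7.75). The value over all chromosomes was 5.21, and 9 sites lay outside the autosomes and chromosome X, on unplaced contigs. They were least frequent on chromosome 22, with 7 sites or 1.12 per 1000 (0.544 to 2.31), and low on chromosomes 19 (2.56), 10 (2.60) and 17 (2.87). Chromosomes 5 and 13 held 20.3% of the coactivator-fusion sites and 14.7% of all merged sites. Of the sites with TAZ4SA and YAP5SA only, 15.2% lay on chromosome 5 and 7.02% on chromosome 13, and of those with both fusions only, 6.47% and 2.41%. In this respect the coactivator-fusion sites, with 14.2% and 6.09%, were nearer to the coactivator sites than to the fusion sites. Copy number of the chromosomes in this line was not measured here, and its part in these counts was not tested.

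Within chromosomes, the sites were scattered. The median gap between neighbours was 580528 bp, and 91 of 1911 gaps (4.76%) were 10 kb or less. Of 2860 bins of 1 Mb with any merged site, 1114 held a coactivator-fusion site and 43 held 5 or more, together 270 sites. The fullest bin was chr13:103000001-104000000, with 11 of its 722 merged sites, of which 5 had YAP-TFE3 alone, 4 TAZ-CAMTA1 alone and 2 both. The bins chr13:96000001-97000000, chr5:130000001-131000000 and chr5:156000001-157000000 held 10 each.

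**Figure D5:**
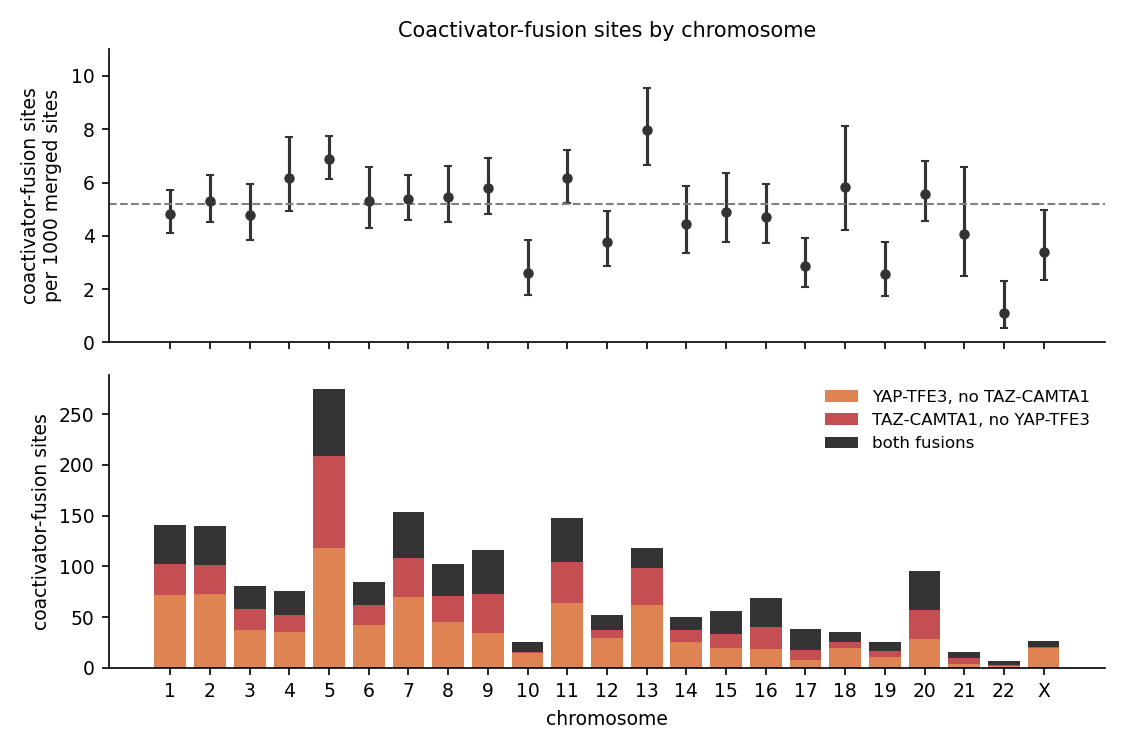
Coactivator-fusion sites per 1000 merged sites on each chromosome (top, points with Wilson 95% intervals, dashed line at the value of 5.21 over all sites) and their number by fusion pattern (bottom, stacked bars). Chromosomes 13 and 5 had the highest values (7.99 and 6.89) and chromosome 22 the lowest (1.12), and sites with YAP-TFE3 alone were the fewer on chromosomes 9, 16, 17, 20 and 21.

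How many sites the rule found depended on what counted as a peak. When peaks under a summit −log10 p of 4 were dropped from every list there were 1693 sites, but 746 of these (44.1%) overlapped a coactivator-fusion site, and the other 947 lay elsewhere. With that limit set for the coactivator and fusion peaks while every EV, CAMTA1 and TFE3 peak still counted, 750 sites were left, and without sites within 500 bp of an excluded peak 1175 were. YAP-TFE3 alone outnumbered TAZ-CAMTA1 alone under each of these, by 2.35, 2.57 and 2.23 times.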

How the data were processed

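ATAC-seq peak lists of SW872 cells, 1 per vector, were used as deposited. The labels give 20 libraries in 7 groups. According to the study's methods, reads were trimmed with NGmerge and aligned, and the authors called peaks with Genrich in ATAC mode, with duplicates, blacklisted regions, the mitochondrial genome and several unplaced contigs removed. Those methods describe calling on each replicate and a later consensus set from DiffBind, whereas each vector here has 1 list. Whether the areas and p-values of a list come from 1 library or several is not given in the sources used here. Coordinates are hg19. The labels also list a mouse build and another aligner, which do not match these coordinates. The deposited signal is the area under the curve, the deposited −log10 p belongs to the summit, and the score deposited by the authors, area per base up to a cap, was not used.

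Peaks overlapping by 1 bp were merged into 372133 sites (bedtools 2.31.1 gave the same number), using Python 3.11.15, numpy 2.4.6, pandas 2.3.3 and scipy 1.17.1. Scripts were tested on simulated data. No test was run, as there is 1 list per vector. Named sites were the 10 with all 4 peaks and the 5 with each fusion alone that had the largest smallest area, and the 3 with the lowest. Members and lists were chosen with earlier results of these data known. Motifs, genes and start sites were not analysed here, because no genome in these coordinates was used here.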

Additional observations from a re-analysis of the deposited data

How the results depend on the processing

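No paired analysis was possible because each vector has 1 list and no value per library, and leaving out a library could not be run for the same reason. The number of sites moved by over 1.5 times to 1241 with equal numbers of peaks per list, to 1175 without sites within 500 bp of an excluded peak, to 750 with the summit −log10 p limited to 4 or more for the coactivator and fusion peaks only, to 741 where peaks had to cover 50% of each other, and to 715 with a limit of 5 in all lists (chosen after seeing the data). The share with both fusions was 27.1% with a −log10 p of at least 4 in all lists, 27.4% with at least 5, 20.2% with equal numbers, 16.3% with the limit of 4 on presence only and 21.1% with the 50% overlap. Touching peaks merged, windows of 250 bp and autosomes alone gave 1940, 1933 and 1903 sites.

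The median log2 ratio of YAP5SA to TAZ4SA reversed to -0.69 with areas divided by the list medians over sites in all 7 lists, and was 0.042 with the −log10 p of the summit, 0.46 with area per bp and 1.17 with a −log10 p of at least 4. That of TAZ-CAMTA1 to TAZ4SA reversed to -1.92, to -0.13 with the −log10 p and to -2.31 percentile points by rank within the list, and was 0.0047 per bp and 1.02 with a −log10 p of at least 4. That of YAP-TFE3 to YAP5SA was -1.11, -0.13 with the −log10 p, -0.23 per bp and -0.072 (-0.19 to 0.066) with a −log10 p of at least 4. That of TAZ-CAMTA1 to YAP-TFE3 was -0.062 with the −log10 p and stayed below 0 under the alternatives computed, although by rank within the list its interval included 0 (-3.64 percentile points, -5.75 to 0.16). Division by the list medians favours lists with a small median where areas lie near the shared lowest value. The cause of these changes was not tested.

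Sites with YAP-TFE3 alone outnumbered those with TAZ-CAMTA1 alone under every alternative computed, by 1.62 times (50% overlap) to 3.94 times (−log10 p of at least 5), and by 1.78 times without chromosomes 5 and 13. Motif and start site alternatives were not run. Depth per list is unknown, so an absent peak may be one that was not detectable.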
